A study of Mus musculus with 15 samples.

Results

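Gm26917, Mir6236 and Lars2 are 3 mouse genes grouped here from background knowledge as like or beside ribosomal RNA (rRNA), and no reads were examined. All 3 were taken by symbol from the 27174 genes in a table of RNA from brain microvessels. They were chosen because earlier results of these same libraries showed them to be abundant or to vary widely, so their levels are described here without a test. The vessels came from adult wild-type C57BL/6 mice carrying an orthotopic glioblastoma, 21 days after transplantation, or a sham operation, and each of the 15 libraries pooled 3 mice. Of the 5 groups of 3 biological replicates, the untreated tumour group came from the tumour-bearing region under control IgG, and the contralateral group from the opposite hemisphere, also under control IgG. The dual therapy group came from the tumour-bearing region under Aflibercept, which traps VEGF, with AMG386, which blocks angiopoietins. The triple therapy group received anti-PD-1 as well, and the sham group carried no tumour. Doses are not given in the sources used here, and a vessel preparation holds several cell types, so more cells of a type and more RNA per cell cannot be told apart in any value below. Values are scores, which are gene read numbers rescaled per library by the authors.

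Ribosomes are built around RNA that RNA polymerase I copies from tandem ribosomal DNA (rDNA) repeats as 1 long precursor. The precursor holds an external transcribed spacer at its 5′ end and then 18S, 5.8S and 28S rRNA, separated by internal spacers. The spacers are cut out in the nucleolus and degraded, so spacer reads come from precursor and processing intermediates, while mature rRNA makes up most of a cell's RNA. Total RNA libraries usually remove mature rRNA before sequencing. The library kit was made for total RNA, and whether rRNA was removed, which strand was counted and how reads with several matching places were treated are not given in the sources used here.

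The rDNA repeats are mostly missing from the mouse genome assembly, but a partial copy stands on chromosome 17, and Gm26917 is part of it. In GENCODE M21, on build GRCm38, Gm26917 (ENSMUSG00000097971) is a long intergenic noncoding RNA at chr17:39843013-39846341 on the plus strand, with a single-exon transcript of 3329 bases and a second, spliced transcript of 869 bases inside it. Its GC content is 69.1%. A stretch of type rRNA, annotated as a minus-strand transcript of CT010467.1 and 1849 bases long, starts 12 bases after Gm26917 ends. Gm26917 thus lies where the 5′ external spacer of a repeat lies, directly before the 18S unit. Gm42418 (ENSMUSG00000098178) starts 617 bases after the end of Gm26917 on the plus strand and overlaps CT010467.1 and AY036118 on the opposite strand. Reads of Gm42418 and CT010467.1 may therefore have been split by strand or lost as ambiguous. The last 120 bases of Gm26917 are shown because they end 12 bases before the rRNA stretch. The first 120 bases of the minus-strand rRNA transcript are shown because they mark the end of that stretch far from Gm26917. The junction itself is not shown. The second sequence is the reverse complement of the 3′ end of 18S rRNA.
Gm26917 end, chr17:39846222-39846341, plus strand: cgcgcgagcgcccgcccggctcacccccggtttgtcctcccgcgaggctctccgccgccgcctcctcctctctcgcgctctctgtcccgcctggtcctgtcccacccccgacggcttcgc
CT010467.1 rRNA transcript, chr17:39848082-39848201, minus strand: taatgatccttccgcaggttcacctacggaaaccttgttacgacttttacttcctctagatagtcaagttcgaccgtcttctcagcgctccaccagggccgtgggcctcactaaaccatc

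**Figure D1:**
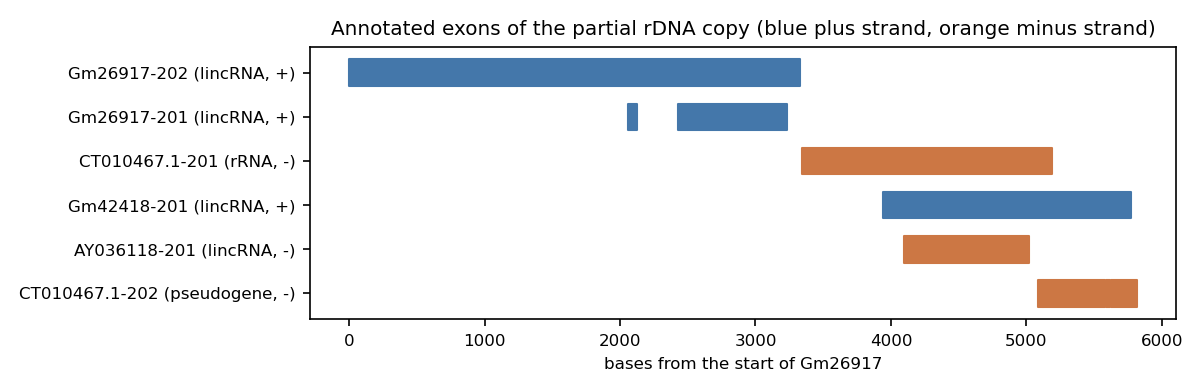
Annotated exons of the partial rDNA copy, by distance in bases from the start of Gm26917 (horizontal axis), 1 row per GENCODE M21 transcript, with plus-strand exons in blue and minus-strand exons in orange. Gm26917 ends 12 bases before the rRNA-type transcript of CT010467.1, and Gm42418 overlaps that transcript on the opposite strand.

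Mir6236 (ENSMUSG00000098973) is annotated as a microRNA hairpin of 123 bases at chr9:110281287-110281409 on the plus strand. Part of the hairpin is known to match a stretch of 28S rRNA, and reads counted there in a total RNA library need not come from a microRNA.

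Lars2 (ENSMUSG00000035202) encodes mitochondrial leucyl-tRNA synthetase, the enzyme that charges the mitochondrial tRNAs for leucine. The gene lies at chr9:123366927-123462666 on the plus strand, and its longest protein-coding mRNA has 3894 bases in 21 exons. Each member was compared by BLAST with the 141767 transcripts of GENCODE M21 (at least 90% identity over at least 50 bases). Gm26917 and Mir6236 matched no transcript of another gene. The Lars2 mRNA matched 1, Gm15564, over 72 bases with 1 mismatch (A53T, the Lars2 base first and positions counted from the 5′ end of the stretch). Gm15564 is an antisense RNA gene on chromosome 16 that is known to hold a piece of 28S rRNA. In Lars2 the stretch lies at chr9:123462048-123462119, inside the 3′ untranslated region of the last exon (chr9:123461676-123462664). Its first 30 bases, identical in both genes, are shown because they mark the stretch that both genes share. Identity of the stretch, or of Mir6236, to 28S rRNA was not measured here, since no 28S or precursor rRNA sequence was at hand. The lack of matches for Gm26917 and Mir6236 therefore cannot show whether they are like those rRNAs.
Lars2 and Gm15564 shared run: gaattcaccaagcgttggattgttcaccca

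Gm26917 was the most abundant of the 3 genes, and its scores in untreated tumour lay above those of all other groups. Its score was 69675, 77803 and 58695 in the sham libraries. It was 53346, 82930 and 55030 in the contralateral libraries. The untreated tumour libraries gave 705780, 778350 and 509962, and no library of another group came near them. The dual therapy libraries held 236164, 210846 and 155526, and the triple therapy libraries 117875, 224810 and 149464. Every tumour library was above every sham and contralateral library, and every treated library was below every untreated tumour library. Only sham against contralateral and dual against triple therapy overlapped.

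The mean Gm26917 score in untreated tumour vessels, 664697 ± 138800 (SD, n = 3), was 10.4-fold the contralateral mean of 63769 ± 16620 and 9.67-fold the sham mean of 68724 ± 9589. On the log2(score + 1) scale used for all differences here, untreated tumour exceeded contralateral by 3.39 ± 0.26 (SE) and sham by 3.26 ± 0.26. Contralateral and sham differed by -0.13 ± 0.26, within the spread of their libraries. The dual therapy level differed from untreated tumour by -1.73 ± 0.26 and the triple therapy level by -2.05 ± 0.26, with means of 200845 ± 41240 and 164050 ± 54940. Dual therapy still exceeded sham by 1.54 ± 0.26 and contralateral by 1.66 ± 0.26. Triple therapy exceeded them by 1.21 ± 0.26 and 1.34 ± 0.26. Triple and dual therapy differed by -0.32 ± 0.26, and their libraries overlapped. In order of means the groups were contralateral, sham, triple therapy, dual therapy and untreated tumour, and the neighbours contralateral and sham, and triple and dual therapy, did not differ beyond their spread.

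Gm26917 made up 0.526% ± 0.134 of the summed score in contralateral and 0.576% ± 0.0868 in sham libraries, against 4.91% ± 0.739 in untreated tumour libraries (SD, n = 3 each). The treated groups lay between, at 1.65% ± 0.333 in dual and 1.42% ± 0.527 in triple therapy. It ranked second of all genes in all 9 tumour libraries, and between rank 5 and rank 9 in the sham and contralateral libraries. Between-group differences held 95.1% of its log2 variance, where the median over 12492 genes with a mean score of at least 50 was 63.4%.

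**Figure D2:**
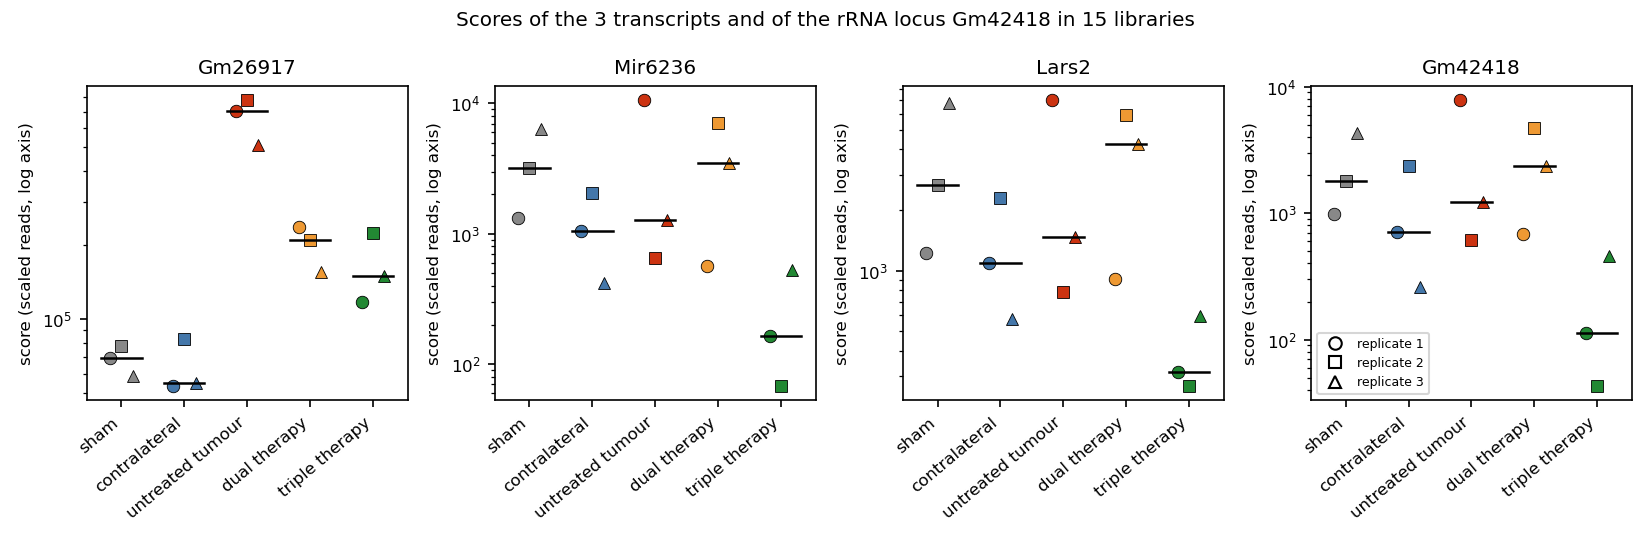
Scores of Gm26917, Mir6236, Lars2 and Gm42418, listed here as an rRNA locus (vertical axes, log scale), in the 3 libraries of each group (horizontal axis), with 1 symbol per replicate number and a line at the group median. Gm26917 is highest in all 3 untreated tumour libraries, while the other 3 genes spread widely inside most groups and are low in triple therapy.

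Mir6236 spread widely inside groups. Its score was 1328, 3219 and 6368 in sham, and 1051, 2065 and 419 in contralateral libraries. In untreated tumour it was 10545, 648 and 1271, so a single library stood far above the other two. The dual therapy libraries gave 568, 7103 and 3474, and the triple therapy libraries 164, 68 and 529. The highest library held 155-fold the score of the lowest. The within-group SD was 1.6 on the log2 scale, second highest of 12492 genes, against a median of 0.21. Differences between groups held 56.2% of the variance of its log2 score, against a median of 63.4% over those genes.

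All 3 triple therapy libraries lay below all sham, untreated tumour and dual therapy libraries in Mir6236, but overlapped the contralateral ones. The log2 difference was -4.05 ± 0.97 (SE) against sham, -3.5 ± 0.97 against untreated tumour and -3.73 ± 0.97 against dual therapy. Untreated tumour and contralateral differed by 1.08 ± 0.97, untreated tumour and sham by -0.55 ± 0.97, and dual therapy and untreated tumour by 0.23 ± 0.97, all with overlapping libraries. With 1 library left out in turn these 3 values changed sign, running from -0.09 (without untreated tumour replicate 1) to 1.92, from -1.73 to 0.28 and from -0.6 to 1.41. By means the order was triple therapy (254 ± 243), contralateral (1178 ± 830), sham (3638 ± 2546), dual therapy (3715 ± 3274) and untreated tumour (4155 ± 5543). No 2 neighbours in that order were separated. The place of untreated tumour rests on replicate 1, since by mean log2 score the order was triple therapy (7.51), contralateral (9.92), untreated tumour (11.01), dual therapy (11.24) and sham (11.56).

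Lars2 followed the same libraries as Mir6236. Its score was 1217, 2652 and 6782 in sham, and 1094, 2301 and 575 in contralateral libraries. Untreated tumour gave 7009, 786 and 1465, dual therapy 906, 5922 and 4267, and triple therapy 312, 267 and 592. The same library, untreated tumour replicate 1, was highest in both genes, and triple therapy replicate 2 was lowest in both. The triple therapy libraries lay below all untreated tumour libraries (log2 difference -2.45 ± 0.75), all dual therapy libraries (-2.95 ± 0.75) and all sham libraries (-2.93 ± 0.75), and overlapped the contralateral ones (-1.62 ± 0.75). Untreated tumour against contralateral was 0.83 ± 0.75 and against sham -0.48 ± 0.75, and dual therapy against untreated tumour was 0.5 ± 0.75, all with overlap. With 1 library left out in turn these also changed sign, running from -0.08 (without untreated tumour replicate 1) to 1.5, from -1.38 to 0.2 and from -0.17 to 1.4.

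Groups without overlap are common in these data, which is the background for the counts over the 3 members. Untreated tumour and contralateral libraries did not overlap in 1 of 3 members and in 49.7% of the 19668 genes tested. For triple therapy against untreated tumour the counts were 3 of 3 and 44%, and for dual therapy against untreated tumour 1 of 3 and 30.7%. For triple against dual therapy they were 2 of 3 and 18.7%, and for contralateral against sham 0 of 3 and 21%. Untreated tumour against sham gave 1 of 3 and 54.2%. Dual therapy against sham gave 1 of 3 and 34%, and against contralateral 1 of 3 and 28.4%. Triple therapy against sham gave 3 of 3 and 30.5%, and against contralateral 1 of 3 and 23.4%. The comparisons share libraries, and the members were chosen with these values known.

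Mir6236 and Lars2 moved together from library to library, and Gm26917 did not move with either. Over 15 libraries, Pearson's r of the log2 scores of Mir6236 and Lars2 was 0.98 (Spearman's rho 0.99), 0.96 for deviations from the group means, and 0.99 without the 2 libraries farthest from the Mir6236 median. Gm26917 had an r of 0.03 with Mir6236 (rho 0.04) and of 0.05 with Lars2 (rho 0.04). These values are descriptions, and the libraries share groups and scaling. The log2 ratio of Mir6236 to Lars2 averaged -0.27 ± 0.6 (SD, n = 15), with group means from -1.01 in triple therapy to 0.1 in sham. The log2 ratio of Gm26917 to Mir6236 averaged 6.99 ± 2.38, with group means of 4.5 in sham, 6.01 in contralateral, 6.36 in dual therapy, 8.31 in untreated tumour and 9.76 in triple therapy. Per kilobase of annotated exon, Gm26917 and Mir6236 had mean scores of 20640 and 29580 in sham, but of 199700 and 33780 in untreated tumour and 49280 and 2062 in triple therapy. The Mir6236 values divide by only 123 bases, so the genes cannot be ranked closely by them. In sham, Lars2 and Gm42418 had 320.2 and 1295 per kilobase.

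**Figure D3:**
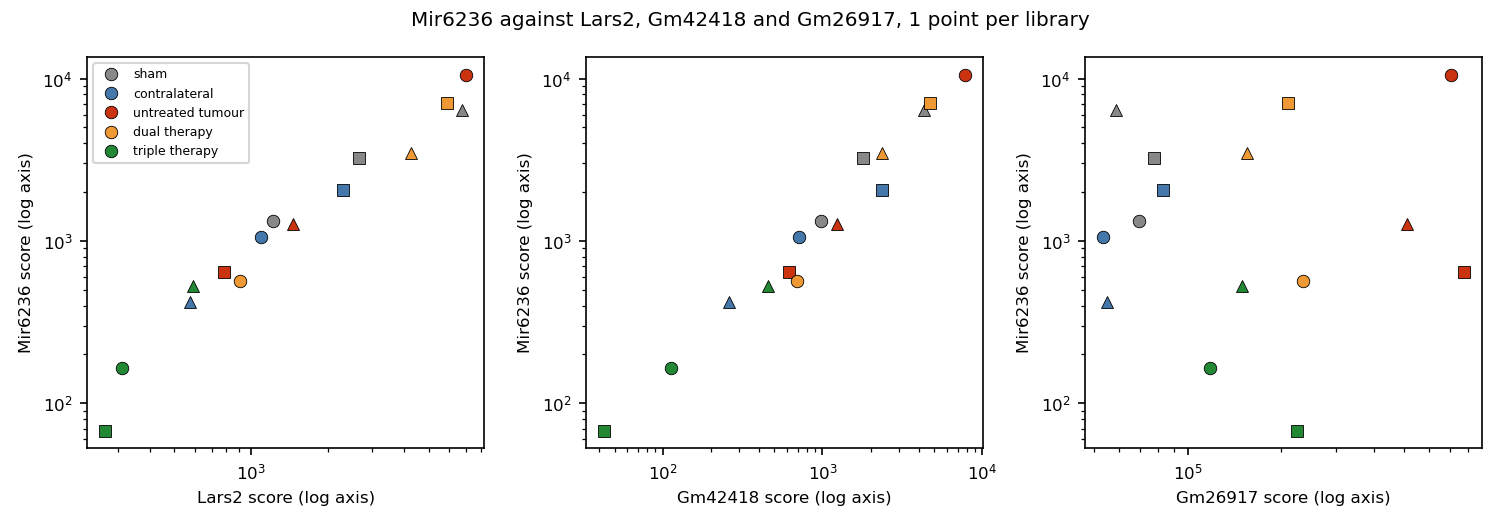
Score of Mir6236 (vertical axes) against the scores of Lars2, Gm42418 and Gm26917 (horizontal axes), all on log scales, with 1 point per library, coloured by group. The points follow a line for Lars2 (r of 0.98) and Gm42418 (r of 0.99) and form no line for Gm26917 (r of 0.03).

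By the fixed rule, the 5 genes closest in pattern were named for each member by Pearson's r over 15 libraries among 12489 genes. For Mir6236 they were Gm42418 (0.987), Gm15564 (0.957), Rfwd2 (0.805), Serbp1 (0.783) and Kdr (0.779). For Lars2 they were Gm42418 (0.964), Gm15564 (0.963), Rfwd2 (0.876), Slc25a27 (0.81) and Ppil1 (0.78). The top 2 places in both lists were taken by Gm42418 and Gm15564, and a step down to the third followed in each. GENCODE M21 types these 2 as a long intergenic noncoding RNA and an antisense RNA. They count as rRNA loci here only through a list chosen with earlier results of these data known. For Gm26917 they were protein-coding genes, Dgkq (0.974), Aup1 (0.972), Espl1 (0.97), Rnf31 (0.97) and Diaph3 (0.968). No gene of the list of nuclear rRNA loci was among those 5.

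Library depth and cell makeup were not the same in all groups. The estimated reads per library ran from 6365348 to 18035515, and the summed score from 11134670 to 15799111, highest in untreated tumour replicate 2. Against log2 estimated reads, r was -0.49 for Mir6236 (rho -0.49, and -0.32 without the 2 farthest libraries), -0.45 for Lars2 and 0.31 for Gm26917. The estimates may be too low in contralateral replicate 3, untreated tumour replicate 3 and triple therapy replicate 1. The read range and these r values are therefore rough. Untreated tumour replicate 1, the library highest in Mir6236 and Lars2, had 9218483 estimated reads, and triple therapy replicate 2, the lowest, had 16960655. Other libraries did not keep that order. Sham replicate 2, with the fewest estimated reads (6365348), scored 3219 in Mir6236, and dual therapy replicate 3, with 15535391, scored 3474. Endothelial markers (12 of 12 present, none at 0 in any library) summed to between 76703 and 111927 in untreated tumour and between 130766 and 159135 in contralateral libraries. From contralateral to untreated tumour, limma called 8 of 8 pericyte and 4 of 5 smooth muscle markers lower. It also called 4 of 6 astrocyte and 6 of 7 neuron markers lower. Of the 19668 genes tested, 4207 were called lower and 42.5% were called in either direction. Of 12 endothelial markers, 5 were called lower and 1 higher, and 0 of 6 oligodendrocyte and 0 of 5 erythrocyte markers were called. In the same comparison limma called 6 of 7 microglia and macrophage markers and 6 of 6 T cell markers higher, beside 21.1% of all genes called higher. Pericyte markers summed to between 53285 and 68145 in contralateral and between 23639 and 28444 in untreated tumour, and neuron markers to between 8535 and 10403 and between 1712 and 3260. Smooth muscle markers summed to between 27956 and 45034 in contralateral and between 7649 and 20510 in untreated tumour, and astrocyte markers to between 32281 and 40584 and between 12413 and 13915. In the treated groups these sums of pericyte, smooth muscle, astrocyte and neuron markers were higher than in untreated tumour in every library. Pericyte markers summed to between 46409 and 57992 in dual and between 51695 and 68145 in triple therapy, and smooth muscle markers to between 24789 and 34131 and between 33899 and 38201. Astrocyte markers summed to between 16106 and 44708 in dual and between 32291 and 39868 in triple therapy, and neuron markers to between 3706 and 6323 and between 5596 and 8228. Erythrocyte markers were also higher in every treated library, whereas oligodendrocyte markers overlapped untreated tumour in both treated groups. Microglia and macrophage markers summed to between 1436 and 1564 in contralateral and between 2420 and 2644 in untreated tumour, and T cell markers to between 48 and 117 and between 432 and 522. In dual and triple therapy the former summed to between 1508 and 2454 and between 2361 and 2682. T cell markers summed to between 331 and 645 and between 377 and 605 there. Both lists overlapped untreated tumour in both treated groups. Endothelial markers summed to between 115464 and 148059 in dual and between 102202 and 133059 in triple therapy, where they overlapped untreated tumour. Only Cd3d, Cd3e and Cd3g were at 0 in any library, in at most 2. The part of depth and of cell makeup in the values of the 3 members was not tested.

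Nuclear rRNA loci other than the members were tested where they were high enough. Of 78 listed loci, 68 were in the table and 9 passed the filter for limma, each at a threshold of 0.05 on the Benjamini-Hochberg adjusted p over 19668 genes. Between contralateral and untreated tumour vessels limma called 3 of the 9 higher and 0 lower, beside 42.5% of all genes called in either direction, and nothing is read from that count. One of the 3 is CT010467.1. The others, Gm24845 and n-R5s26, scored 12, 11 and 18 and 16, 15 and 13 in the untreated tumour libraries. Outside that group Gm24845 reached at most 6, and n-R5s26 reached 10 in 1 library of triple therapy. Both passed the filter through the group where they were high, so they had to differ, and the 9 do not stand for the 68.

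CT010467.1, annotated on the minus strand of the rDNA copy, had a pattern close to that of Gm26917. In the authors' table it spans chr17:39848103-39848827, the place of its 4-exon pseudogene transcript in GENCODE M21, which starts inside the end of the 18S unit and runs on into the spacer. Its score was 19, 30 and 21 in contralateral and 28, 24 and 34 in sham libraries, but 179, 540 and 229 in untreated tumour. Dual therapy gave 67, 59 and 76, and triple therapy 42, 62 and 27. It rose between contralateral and untreated tumour by 3.56 ± 0.37 on the log2 scale (limma adjusted p = 6.08e-07). It was lower than untreated tumour in dual therapy, by -2.05 ± 0.37 (limma adjusted p = 0.00078), and in triple therapy, by -2.74 ± 0.37 (limma adjusted p = 2.65e-05). Its r with Gm26917 was 0.94 over 15 libraries and 0.38 for deviations from the group means.

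Gm42418, which overlaps CT010467.1 but lies on the plus strand, had a pattern close to that of Mir6236. Its score was 982, 1801 and 4330 in sham, 709, 2373 and 260 in contralateral, and 7795, 616 and 1233 in untreated tumour libraries. Dual therapy gave 688, 4738 and 2363, and triple therapy 113, 43 and 456. Its r with Mir6236 was 0.99. It did not pass the test between untreated tumour and contralateral (1.25 ± 0.95, limma adjusted p = 0.306) and fell from untreated tumour to triple therapy, by -3.78 ± 0.95 (limma adjusted p = 0.00514). Gm15564, the gene that shares its stretch with Lars2, also fell in that comparison, by -2.68 ± 0.82 (limma adjusted p = 0.0181), and was not called in the other 5. Without untreated tumour replicate 1, the Gm15564 value was -1.88 and its limma adjusted p 0.112. Without triple therapy replicate 1 or 2 the limma adjusted p was 0.0576 or 0.0695.

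The 5.8S gene n-R5-8s1 had low scores, with means of 20.33 ± 15.3 in untreated tumour and 3.667 ± 6.35 in triple therapy (SD, n = 3). It was called lower in triple therapy (limma adjusted p = 0.0108) although the libraries overlapped, and lost the call without untreated tumour replicate 1 or without triple therapy replicate 1 or 2, with limma adjusted p of 0.063, 0.0618 and 0.0565. The 5S genes, which RNA polymerase III copies from separate loci, summed over 32 genes to between 23 and 58 in contralateral and between 73 and 133 in untreated tumour libraries. In sham the sum was between 42 and 49. Only 2 of the 32 passed the filter, so the sums rest largely on scores too low to test, and they were not tested. In dual therapy the 5S sum was between 66 and 98, and in triple therapy between 52 and 63. From untreated tumour to dual therapy limma called 2 of the 9 tested loci lower, Gm24845 and CT010467.1, beside 10.2% of all genes called lower and 22.3% called in either direction. To triple therapy 5 were called lower, n-R5s26 among them, beside 15% called lower and 32.2% in either direction. Gm24845 and n-R5s26 entered the test through untreated tumour, so these counts support nothing. From contralateral to sham and from dual to triple therapy, 0 of the 9 were called by limma, beside 0.432% and 0.869% of all genes.

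The mitochondrial rRNAs are copied from mitochondrial DNA and were the reference for rRNA of another source. The 12S gene mt-Rnr1 rose from 103200 ± 15300 in contralateral to 241400 ± 75900 in untreated tumour (SD, n = 3), by 1.18 ± 0.25 on the log2 scale (limma adjusted p = 0.000873). It fell in dual therapy by 1.08 and in triple therapy by 1.59 (limma adjusted p = 0.00501 and 0.000113). The 16S gene mt-Rnr2, the most abundant row of the table, did not pass between untreated tumour and contralateral (0.85 ± 0.43, limma adjusted p = 0.121), though the libraries did not overlap, and passed with libraries scaled to the same sum (0.7, limma adjusted p = 0.0291). It rose against sham by 1.21 ± 0.43 (limma adjusted p = 0.0277) and, from untreated tumour to triple therapy, fell by 1.37 (limma adjusted p = 0.0206). The call against sham was lost without sham replicate 1, 2 or 3 or untreated tumour replicate 2 (limma adjusted p = 0.0612, 0.0762, 0.0603 and 0.0533), and the triple therapy call without triple therapy replicate 1 or 2 (limma adjusted p = 0.0566 and 0.0785). After quantile normalisation mt-Rnr1 was not called in untreated tumour against contralateral (0.06, limma adjusted p = 0.889). Its calls in dual and triple therapy were lost as well (-0.5 and -0.64, limma adjusted p = 0.218 and 0.0954). The mt-Rnr2 differences of untreated tumour from sham and of triple therapy from untreated tumour became 0, so neither was called. Quantile normalisation gives equal ranks equal values, so for this most abundant row the loss was fixed in advance and nothing is read from it. The r of mt-Rnr2 with Gm26917 was 0.67 over 15 libraries and 0.33 without the 2 libraries farthest from the Gm26917 median.

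Genes of the RNA polymerase I machinery and the nucleolus, where the precursor is made and cut, were mostly higher in untreated tumour vessels. Of 20 tested, 13 rose and 0 fell between contralateral and untreated tumour, with a median log2 fold change of 0.6, beside 21.1% of all genes called higher. Against sham, 11 rose and 1 (Taf1b) fell, beside 23.3% of all genes called higher and 46.6% called in either direction. From untreated tumour to dual therapy 9 of the 20 fell and 0 rose, beside 10.2% of all genes called lower, and to triple therapy 8 fell and 0 rose, beside 15% called lower. Between dual and triple therapy, and between contralateral and sham, 0 were called by limma. With 1 library left out in turn, 9 to 11 rose against contralateral and 9 to 11 against sham. From untreated tumour, 6 to 8 then fell in dual and 7 to 9 in triple therapy.

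Taf1d, a subunit of the selectivity factor that places RNA polymerase I on its promoter, changed most. It rose from 430.7 ± 58.8 in contralateral to 2200 ± 590 in untreated tumour (SD, n = 3), by 2.33 ± 0.16 on the log2 scale (limma adjusted p = 1.09e-08). It fell in dual therapy by 1.62 (limma adjusted p = 7.06e-06) and in triple therapy by 2.23 (limma adjusted p = 1.76e-07). Nop56 and Nop58, core proteins of the particles that guide rRNA methylation, rose by 1.53 ± 0.16 and 1.07 ± 0.11 (limma adjusted p = 6.18e-07 and 8.11e-07). Npm1, the nucleolar chaperone nucleophosmin, rose by 1.17 ± 0.11 (limma adjusted p = 2.69e-07). Nop56, Nop58 and Npm1 all fell in both therapies, by 0.9 to 1.3.

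The most abundant member, Ncl (nucleolin, a nucleolar RNA-binding protein), rose by 0.84 ± 0.16 (limma adjusted p = 0.000468) and fell by 0.54 in dual therapy (limma adjusted p = 0.0252). The dual therapy call on Ncl was lost without untreated tumour replicate 1 or 2 or dual therapy replicate 1 or 2, with limma adjusted p of 0.084, 0.0537, 0.0844 and 0.138. Ubtf, which binds and opens rDNA, was 1278 ± 136 in untreated tumour and 1076 ± 68.5 in contralateral and did not pass (0.25 ± 0.11, limma adjusted p = 0.0795). Rrn3, which links the polymerase to its promoter factors, and the polymerase's largest subunit Polr1a did not pass either (0.02 ± 0.11 and 0.25 ± 0.13, limma adjusted p = 0.887 and 0.144). Polr1a rose against sham by 0.45 ± 0.13 (limma adjusted p = 0.00929) and, from untreated tumour to dual therapy, fell by 0.43 (limma adjusted p = 0.0266). Leaving out sham replicate 1 ended the Polr1a call against sham (limma adjusted p = 0.0593), and the dual therapy call was lost without untreated tumour replicate 1 or 3 or dual therapy replicate 2 or 3 (limma adjusted p = 0.0731, 0.059, 0.0867 and 0.0758). Against contralateral Polr1a passed without contralateral replicate 1 (0.4, limma adjusted p = 0.0242).

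**Figure D4:**
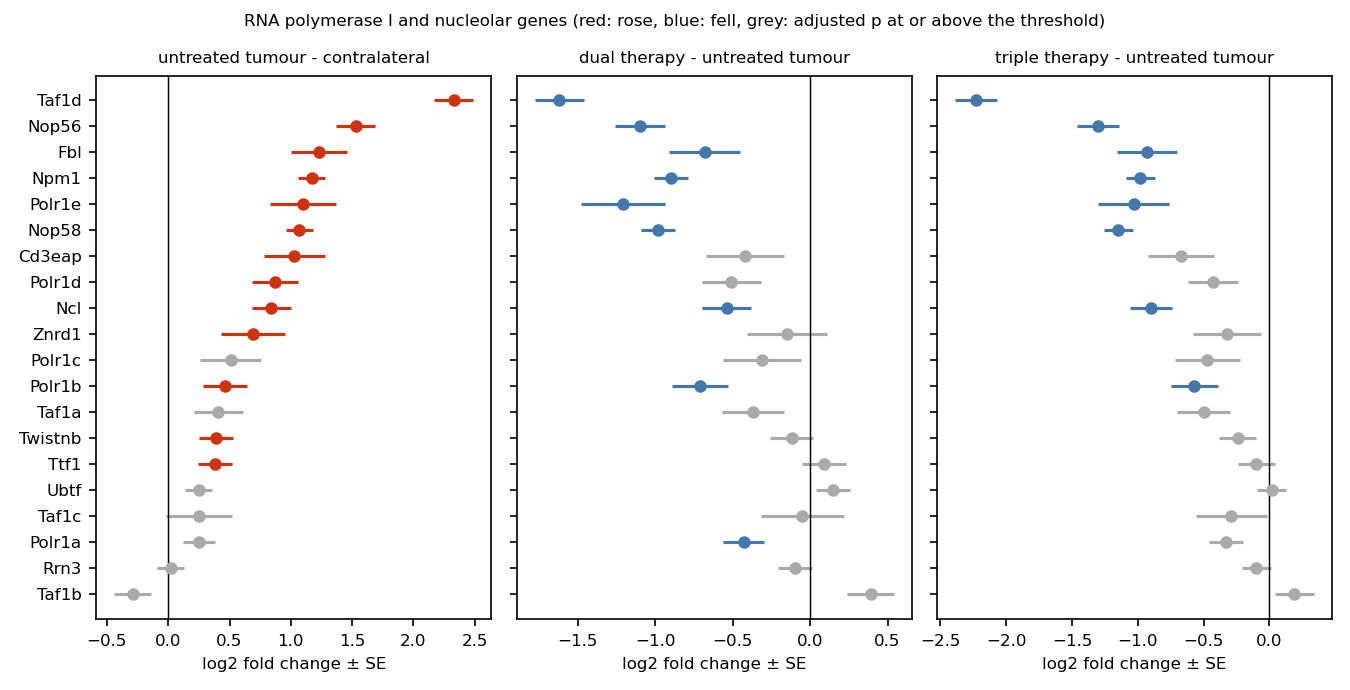
Log2 fold change with its SE (horizontal axes) of 20 RNA polymerase I and nucleolar genes (vertical axis) in untreated tumour against contralateral, dual therapy against untreated tumour and triple therapy against untreated tumour. Red points rose, blue points fell and grey points did not pass the limma threshold; 13 rose in the first panel, and 9 and 8 fell in the other two.

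Of 12 other structural noncoding RNAs, 5 passed the filter, and limma called 4 of them higher in untreated tumour than in contralateral vessels, beside 21.1% of all genes called higher. Rmrp, the RNA of RNase MRP, which cuts the rRNA precursor, had a mean of 562 ± 135 in contralateral and 3747 ± 1520 in untreated tumour (SD, n = 3). It rose by 2.67 ± 0.31 (limma adjusted p = 2.36e-06) and fell by 2.23 in dual and 2.38 in triple therapy (limma adjusted p = 0.000119 and 2.16e-05). Rpph1, the RNA of RNase P, which trims tRNA precursors, rose by 1.22 ± 0.25 (limma adjusted p = 0.000797). Rny3, a Y RNA, rose by 1.89 ± 0.48 (limma adjusted p = 0.00379). Terc, the telomerase RNA and the fourth of those called, scored 0, 0 and 1 in contralateral and 26, 26 and 14 in untreated tumour libraries. Outside untreated tumour only dual therapy replicate 3, at 15, reached 10, so Terc passed the filter through its high group and its call supports nothing. Rn7sk, which holds back transcription elongation, did not pass in untreated tumour against contralateral (0.49 ± 0.2, limma adjusted p = 0.0525) and fell in triple therapy by 0.62 (limma adjusted p = 0.0224), with overlapping libraries. That call was lost without untreated tumour replicate 1 or 2 or triple therapy replicate 2 or 3, with limma adjusted p of 0.0847, 0.058, 0.0956 and 0.1.

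Lars2 differed from the other aminoacyl-tRNA synthetases of mitochondria in its range. Its wide range was known when it was chosen, so the contrast is a description and supports nothing further. The highest library held 26.3-fold the Lars2 score of the lowest, whereas for 16 other mitochondrial synthetases that fold ran from 1.33 (Iars2, for isoleucine) to 2.95 (Sars2, for serine), with a median of 2.08. The within-group SD of Lars2 was 1.24 on the log2 scale, and that of the 16 ran from 0.08 to 0.48. Between contralateral and untreated tumour 2 of the 16 rose, 2 fell and 12 were not called, beside 42.5% of all genes called in either direction. Vars2, for valine, rose by 1.12 ± 0.22 (limma adjusted p = 0.000458) and Tars2, for threonine, by 0.73 ± 0.19 (limma adjusted p = 0.00517). The Tars2 libraries overlapped, and its call was lost with libraries scaled to the same sum (0.58, limma adjusted p = 0.0553). Wars2, for tryptophan, fell by 0.48 (limma adjusted p = 0.0192), and Iars2 by 0.26 (limma adjusted p = 0.0398). The Wars2 call was lost without contralateral replicate 1 or 3 or untreated tumour replicate 2 (limma adjusted p = 0.0827, 0.0675 and 0.0717). The Iars2 call was lost without any one of the contralateral libraries (limma adjusted p = 0.0857, 0.067 and 0.0965 without replicate 1, 2 and 3) and without untreated tumour replicate 3 (0.165). From untreated tumour to triple therapy, where Lars2 differed by -2.45, 3 of the 16 fell and 0 rose, beside 15% of all genes called lower. Vars2 fell by 0.89 (limma adjusted p = 0.00447). Lars, the cytosolic leucyl-tRNA synthetase, rose by 0.58 ± 0.1 in untreated tumour against contralateral (limma adjusted p = 0.000181), and its highest library held 1.75-fold its lowest.

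**Figure D5:**
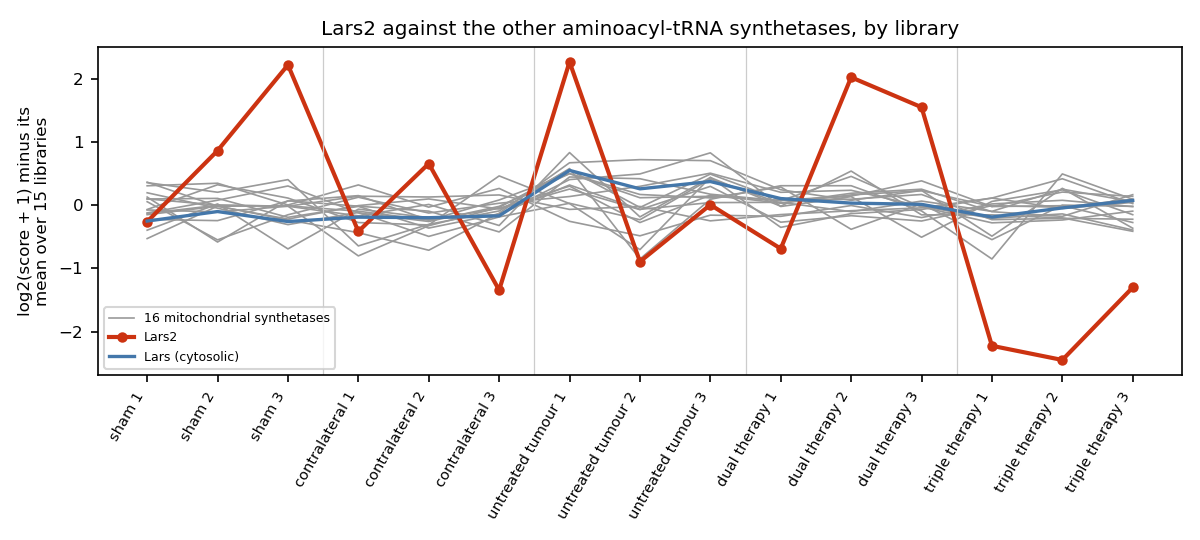
Log2(score + 1) of Lars2 (red), of Lars (blue) and of 16 other mitochondrial aminoacyl-tRNA synthetases (grey), each minus its own mean over 15 libraries (vertical axis), by library (horizontal axis, grouped by condition). The grey lines stay close to 0, whereas Lars2, chosen with its wide range known, swings through 26.3-fold and is lowest in triple therapy replicate 2.

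The tested genes beside Lars2 and Mir6236 on the chromosome had narrower ranges. Both members were chosen with their wide ranges known, so this too is a description. Around Lars2, the highest library held 3.5-fold (Tmem158), 4.81-fold (Clec3b), 1.8-fold (Limd1) and 1.61-fold (Sacm1l) the lowest. Around Mir6236, the folds were 4.02 for Cspg5, 1.47 for Smarcc1, 2.86 for Elp6 and 1.69 for Scap, against 155 for Mir6236 itself. The nearest tested genes before Gm26917 lay 1830617 (Gm20541) and 2359461 (H2-M2) bases away, and those after it were Gm42418 and CT010467.1.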

How the data were processed

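RNA was measured in 15 libraries of brain microvessels. The deposited values are scores: read numbers per gene that the authors rescaled by 1 factor per library and rounded to whole numbers, as the values themselves show. The submitters' processing notes name STAR 2.4.0a, featureCounts 1.4.5-p1, DESeq2 and the builds mm10 and GRCm38. Since the scores are not raw counts, log2(score + 1) was tested with limma 3.58.1 in R 4.3.3 (trended empirical Bayes, 1 mean per group, all 15 libraries) on the 19668 genes that reached a score of 10 in 3 or more libraries, leaving out 7506, with Benjamini-Hochberg adjustment at 0.05. The script was tested on simulated data. Estimated reads divide the summed score by the step between a library's values, and in 3 libraries a step of 1 could not be told from no rescaling or from smaller steps. p-values measure the spread between pools of 3 mice. Of 27174 gene rows, 27114 matched GENCODE M21, and sequences came from it, with blastn 2.17.0+; the sequence of Mir6236 is not reported here.

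The members and all gene lists were chosen with earlier results of these data known. The text names the 3 members, the 5 genes closest to each in Pearson's r among tested genes with a mean score of at least 50, the neighbours, and of each list up to 4 genes of highest mean and up to 4 called genes of smallest adjusted p between untreated tumour and contralateral; other genes named from the lists were chosen after their values were seen.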

Additional observations from a re-analysis of the deposited data

How the results depend on the processing

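Of 868 recomputed values of 78 results, 819 stayed close to the reported value and 49 moved. The Gm26917 difference between untreated tumour and contralateral was 3.74 with scaling by endothelial markers and 1.7 after quantile normalisation. After the latter its difference from sham was 1.5, and those of dual and triple therapy from untreated tumour were 0 and 0, because the method gives equal ranks equal values and Gm26917 ranked second in all 9 tumour libraries. Its share in untreated tumour was 6.65% of a sum without mitochondrial rRNA. The median of all genes in untreated tumour against contralateral was -0.136 with same-sum scaling, 0.142 with that sum taken without rRNA and 0.352 with endothelial scaling, and the higher share of all calls, 49.6% in the report, was 37%, 60.8% and 76.4%.

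Small counts moved most. Without a filter 7 nuclear rRNA loci rose against contralateral, 5 rose and 2 fell against sham, and 1 fell from dual to triple therapy. With a score of at least 50, 1 and 1 rose, and 1 and 3 fell in dual and triple therapy, since fewer loci were tested, and with only the 6 libraries compared 1 fell in dual therapy. Mitochondrial synthetases called in either direction against contralateral numbered 7 with same-sum scaling without rRNA, 9 with endothelial scaling and 2 with 6 libraries, and against sham 2 after quantile normalisation. In dual therapy 1 was called with each of same-sum scaling without rRNA, endothelial scaling and no trend, and in triple therapy 6 with same-sum scaling without rRNA and 5 with a score of at least 50. Iars2 turned to 0.09 with endothelial scaling. Against sham 0 nucleolar genes fell with same-sum scaling without rRNA, endothelial scaling or 6 libraries, and after quantile normalisation 1 rose in dual therapy. The cause was not tested except where named.

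Leaving out 1 library at a time gave Gm26917 differences from 3.26 to 3.59 against contralateral. The Mir6236 and Lars2 differences between triple therapy and untreated tumour ran from -4.33 to -2.32 and from -3.12 to -1.55, nearest 0 without untreated tumour replicate 1. Nuclear rRNA loci that rose against contralateral numbered 1 to 2 (1 without contralateral replicate 2 or 3), and those that fell in triple therapy 2 to 5 (2 without untreated tumour replicate 1 or triple therapy replicate 2, 3 without triple therapy replicate 1). From dual to triple therapy 0 to 2 fell (2 without dual therapy replicate 1). Synthetases called numbered 2 to 5 against contralateral (2 without contralateral replicate 1), 2 to 7 against sham (2 without sham replicate 2 or untreated tumour replicate 3, 7 without untreated tumour replicate 2), 0 to 1 in dual and 2 to 5 in triple therapy (1 and 5 without untreated tumour replicate 2). Nucleolar genes that fell numbered 0 to 1 against contralateral (1 without untreated tumour replicate 3) and against sham (0 without sham replicate 1 or untreated tumour replicate 2), and 0 to 1 rose in dual therapy (1 without untreated tumour replicate 3 or dual therapy replicate 1). Without untreated and dual replicate 2 together, chosen after seeing the data, 1 nuclear locus fell and 2 synthetases were called in dual therapy, and 5 in triple therapy.

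In no comparison were all correlations of same-numbered deviations above 0.1, and for untreated tumour against contralateral they ran from -0.055 to 0.07. Deviations within groups of 3 cannot settle whether same-numbered libraries came from the same mice. Whether tumour and contralateral libraries were paired therefore stays unknown. With the replicate number as a block, 3 nuclear rRNA loci and 12 nucleolar genes rose against contralateral. Among named genes the block ended the calls of Iars2 against contralateral and mt-Rnr2 against sham (limma adjusted p = 0.0508 for both) and added Rn7sk against contralateral (0.0236). Depth limits loci with few reads, such as n-R5-8s1.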
